A study of Mus musculus with 38 samples.

Results

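The genes described here are the bone morphogenetic protein (BMP) ligands and the extracellular proteins that hold or release them: the ligands Bmp2, Bmp4, Bmp5, Bmp6 and Bmp7, the protease Bmp1, the antagonists Grem1 and Chrdl1, and the modulators Bmper and Twsg1. They were chosen by name, and all 10 were found among the 13260 genes of the expression table. Polyadenylated RNA of 100 sorted cells per library was measured by RNA-Seq with the SmartSeq2 protocol in 38 libraries, to ask how myeloma alters the cells that line the bone. C57Bl/KaLwRijHsd mice aged 8 to 10 weeks received an intravenous injection of PBS (healthy) or of 1000000 5TGM1-GFP cells (myeloma-bearing), murine myeloma cells labelled with a fluorescent protein, were given no other treatment and were culled on day 23. Endothelial cells (sorted for CD31), stromal progenitors (sorted for Sca1) and osteoprogenitors (sorted for ALCAM) came from the digested bone lining of mice of both kinds, and GFP-positive myeloma cells came from the bone lining and from the central marrow of myeloma-bearing mice. Each of the 8 groups held 5 libraries, except both osteoprogenitor groups, which held 4. Replicates came from different mice, the tumour is a single transplanted cell line, and the library letters used below are not said to name a mouse. Values are listed in the order C, L, M, N, O for healthy libraries (L, M, N, O for osteoprogenitors) and D, E, G, I, J for myeloma-bearing and myeloma libraries (D, G, I, J for osteoprogenitors).

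BMP ligands are secreted dimers of the TGF-beta superfamily. They bind paired type I and type II receptor kinases, which phosphorylate Smad1, Smad5 and Smad9 and switch on targets such as the Id genes, and they take their name from the induction of bone. Gremlin, chordin-like proteins and related molecules bind the ligands outside the cell, and proteases of the BMP1 and tolloid family cleave chordin and process procollagen, so the amount of ligand that reaches a receptor is set partly in the matrix.

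Levels are given in RPKM, read counts scaled for the length of the transcript and for the depth of the library, which allows a comparison between genes, and changes are log2 fold changes of RPKM + 1 with their standard error (SE) from limma. A gene was tested where it was above 1 RPKM in at least 4 libraries of a comparison, and was called at a Benjamini-Hochberg adjusted p below 0.1, over all genes tested, with an absolute log2 fold change above 1. Library depth, from reads recovered from the RPKM values, ran from 9735031 to 34883291, with a median of 18358479. The sorted types carried their markers: Cdh5, the VE-cadherin of endothelium, read 135 to 392 RPKM in endothelial libraries and at most 2.39 RPKM elsewhere. The summed stromal list was 34906 to 72198 RPKM in stromal progenitors and at most 25203 RPKM elsewhere, with Dcn alone at 31527 to 65121 RPKM. Of that list Dcn, Lum, Prrx1, Pdgfra and Pdgfrb had their highest median in stromal progenitors. Ly6a (1229 RPKM), Lepr (25.2 RPKM) and Cxcl12 (124 RPKM) had higher medians in endothelial cells (3913, 29.1 and 183 RPKM). Summed osteoprogenitor markers were 10339 to 69517 RPKM in osteoprogenitors against 938 to 3361 RPKM in stromal progenitors, and summed plasma cell markers were 3393 to 10042 RPKM in myeloma cells against at most 35.7 RPKM elsewhere. Some libraries stood apart: stromal libraries L (healthy) and E (myeloma-bearing) held 7313 and 8075 RPKM of neutrophil markers against group medians of 32.9 and 67.7 RPKM, and endothelial library J had the highest osteoprogenitor sum of its type, 655 RPKM, of which Ibsp made up 530.3 RPKM while Sp7 and Alcam were at 0. Endothelial markers summed to at most 206 RPKM (median 165 RPKM) in myeloma-bearing and 62.7 RPKM (median 8.99 RPKM) in healthy stromal progenitors, with Cdh5 at or below 0.227 RPKM in both. In bulk RNA, fewer cells that express a gene and less RNA per cell cannot be told apart.

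Bmp4 had the highest mean of the ligands in stromal progenitors and in endothelial cells. Bmp5 and Grem1 were each high in some libraries and near 0 in others of the same group. The regions upstream of these genes are shown to set their sequence beside these patterns. RefSeq windows (GRCm38.p6) matched 6 of the 10 members, and Bmp1, Bmp2, Bmp7 and Chrdl1 had none. Each run is the 249 bases upstream of the annotated start, 5′ to 3′ on the gene's strand, with CpG dinucleotides in capitals: chr14:46390671-46390919 (minus strand) for Bmp4, chr9:75775115-75775363 (plus strand) for Bmp5 and chr2:113758650-113758898 (minus strand) for Grem1.
Bmp4: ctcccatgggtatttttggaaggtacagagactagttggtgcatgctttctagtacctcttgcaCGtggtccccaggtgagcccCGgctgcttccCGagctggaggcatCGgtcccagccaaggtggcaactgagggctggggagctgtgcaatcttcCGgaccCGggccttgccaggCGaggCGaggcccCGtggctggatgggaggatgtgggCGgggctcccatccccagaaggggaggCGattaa
Bmp5: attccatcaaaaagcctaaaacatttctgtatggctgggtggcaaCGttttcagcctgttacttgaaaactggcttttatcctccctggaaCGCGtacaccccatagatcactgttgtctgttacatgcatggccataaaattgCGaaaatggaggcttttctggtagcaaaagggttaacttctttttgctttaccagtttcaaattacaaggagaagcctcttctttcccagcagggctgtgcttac
Grem1: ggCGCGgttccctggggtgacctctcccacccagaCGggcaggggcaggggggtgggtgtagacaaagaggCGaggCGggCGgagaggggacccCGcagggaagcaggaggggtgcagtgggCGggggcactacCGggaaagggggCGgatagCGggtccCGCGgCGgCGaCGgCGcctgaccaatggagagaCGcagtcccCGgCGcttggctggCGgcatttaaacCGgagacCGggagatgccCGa
Bmp4 has 11 CpG, more than 64.5% of 32851 windows of this length, Bmp5 has 4 (more than 37.8%) and Grem1 has 24 (more than 88.1%), where the median is 6. The GC box letters GGGCGG, searched on both strands, occur once in the Bmp4 window, 3 times in that of Grem1 and not in that of Bmp5, and 32.6% of all windows hold them. Bmp5 and Grem1, alike in their uneven libraries, thus lie on opposite sides of the median in CpG number. Nothing in these RNA data measures binding or methylation there.

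Bmp2 (chr2:133552159-133562885, plus strand, GRCm38), a ligand that can by itself induce ectopic bone, was abundant in both mesenchymal populations and uneven in endothelium. In stromal progenitors it read 69.8, 94.4, 54.3, 44.1 and 137 RPKM in healthy and 43.9, 37.4, 25.1, 230.3 and 23.5 RPKM in myeloma-bearing mice. In osteoprogenitors it read 119, 61.3, 44.5 and 41.1 RPKM in healthy and 21.2, 38.7, 70.3 and 12.9 RPKM in myeloma-bearing mice. The mesenchymal groups overlapped, with a single library, stromal I, above all others at 230.3 RPKM, while the other 4 myeloma-bearing stromal libraries lay below every healthy one, by as little as 43.9 against 44.1 RPKM. The stromal difference was not called (log2 fold change -0.64 ± 0.62 (SE), adjusted p = 0.987). Without library I, singled out after seeing these values, it was -1.20 with an unadjusted p of 0.0281 in limma and adjusted p = 0.918. That p is not independent of the choice. Endothelial libraries read 0.781, 0.0679, 3.6, 34.7 and 0.0819 RPKM in healthy and 0.0213, 12.4, 14.7, 0.0592 and 41 RPKM in myeloma-bearing mice, so that 5 of 10 were under 1 RPKM while N, E, G and J reached 12.4 to 41.0 RPKM. Myeloma cells held at most 4 reads. The order of mean level was stromal progenitors (76.0 RPKM), osteoprogenitors (51.2 RPKM), endothelial cells (10.8 RPKM) and myeloma cells (0.0314 RPKM). The neighbours at the top did not separate (log2 fold change -0.46 ± 0.46 (SE), adjusted p = 0.694), whereas Bmp2 was higher in osteoprogenitors than in endothelial cells (log2 fold change 3.28 ± 0.82 (SE), adjusted p = 0.0054). This call was lost when myeloma-bearing mice were fitted alone, at a log2 fold change of 2.29 with adjusted p = 0.253. In myeloma-bearing osteoprogenitors 3 of 4 libraries lay below all healthy libraries, but the difference was within the spread between replicates (log2 fold change -1.01 ± 0.61 (SE), adjusted p = 0.981).

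Bmp4 (chr14:46383520-46390669, minus strand), the close relative of Bmp2, was the most abundant ligand in 6 of 10 stromal, 6 of 8 osteoprogenitor and 7 of 10 endothelial libraries. Stromal progenitors read 60, 263, 152, 117 and 81 RPKM in healthy and 146, 28.4, 149.7, 10.2 and 75.3 RPKM in myeloma-bearing mice. The 2 lowest stromal values, E and I, were both in myeloma-bearing mice, and the log2 difference did not pass the test (log2 fold change -1.08 ± 0.68 (SE), adjusted p = 0.956) and was -0.50 without library I. Osteoprogenitors read 15.3, 61.6, 17.4 and 54.1 RPKM in healthy and 22.8, 42.5, 87.3 and 64.5 RPKM in myeloma-bearing mice, with overlapping groups. Endothelial cells read 88.7, 0.371, 144, 0.779 and 68.1 RPKM in healthy and 22.8, 0.0557, 14.9, 131 and 95.1 RPKM in myeloma-bearing mice. High and near-absent libraries thus stood side by side in both endothelial groups, from 2 reads in E to 6724 reads in M. Myeloma cells held 0 to 13 reads (at most 0.306 RPKM), below every stromal and osteoprogenitor library. Among the niche types the order of the means was stromal progenitors (108 RPKM), endothelial cells (56.6 RPKM) and osteoprogenitors (45.7 RPKM), and no pair of them was called. Stromal progenitors and endothelial cells (log2 fold change 2.02 ± 0.91 (SE), adjusted p = 0.131) did separate with all 38 libraries in the fit, with limma (adjusted p = 0.0476) or voom-limma (adjusted p = 0.0579), and without the libraries lettered C, I or M, at adjusted p from 0.0525 to 0.0954. The lower level in osteoprogenitors than in stromal progenitors (log2 fold change -1.04 ± 0.50 (SE), adjusted p = 0.293) reached an adjusted p of 0.0888 once stromal library I was left out.

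**Figure D1:**
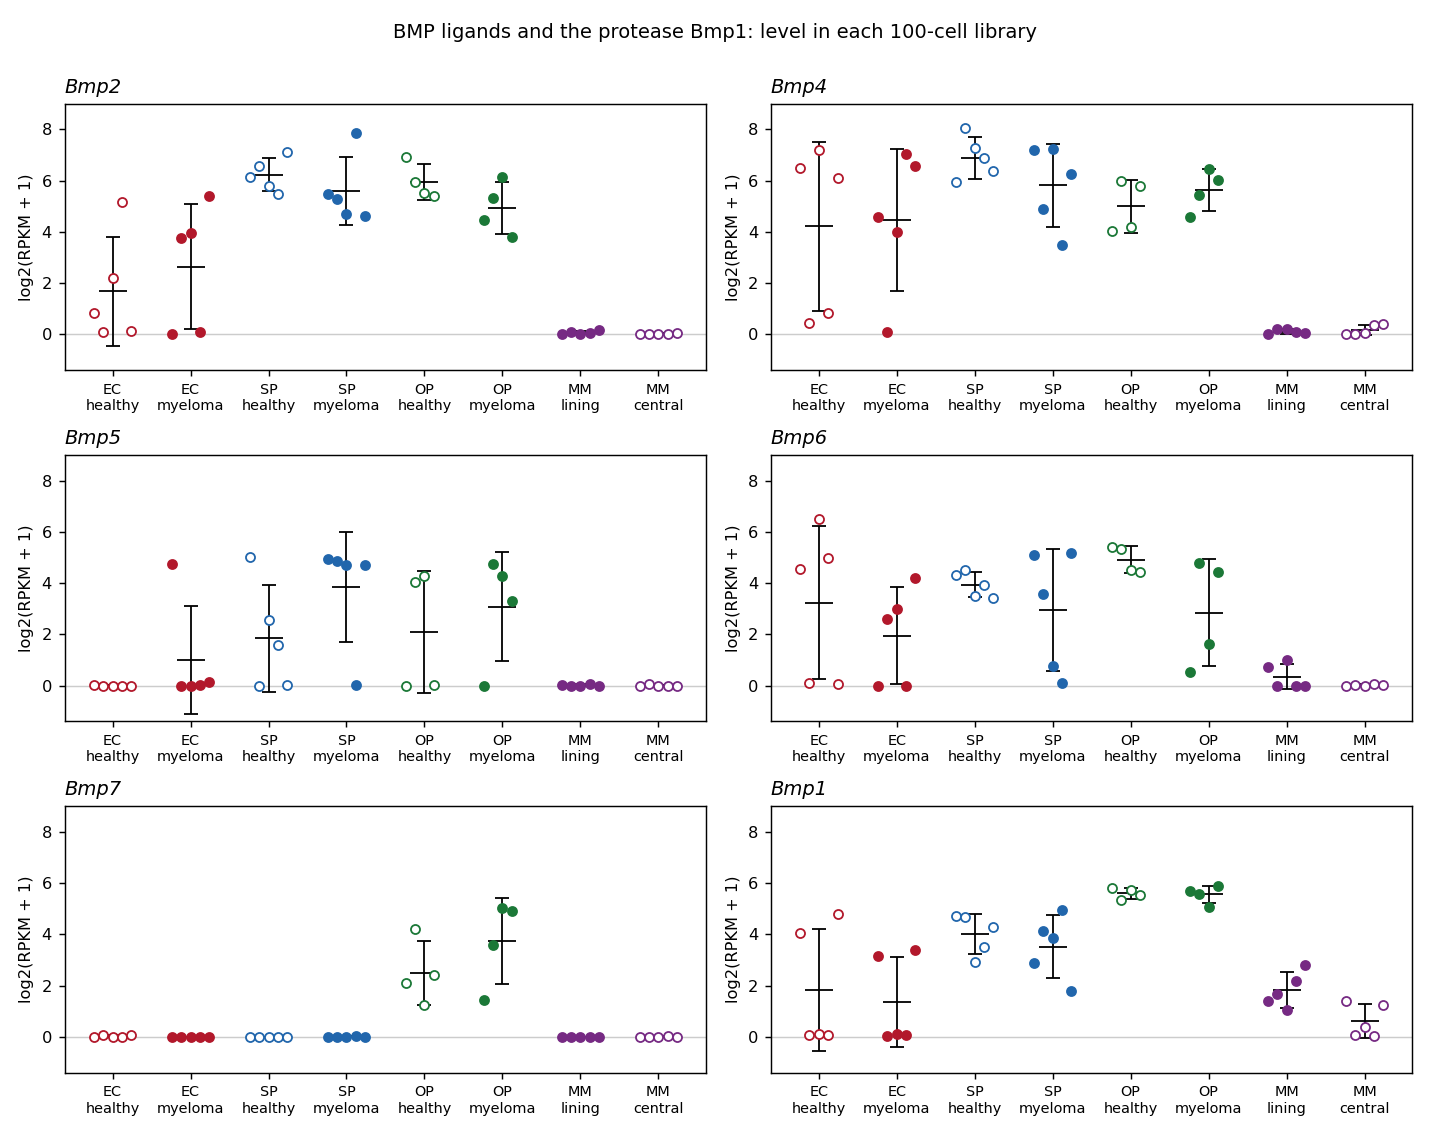
Each panel plots log2(RPKM + 1) of Bmp2, Bmp4, Bmp5, Bmp6, Bmp7 or the protease Bmp1 for all 38 libraries by group; filled points are myeloma-bearing mice or bone-lining myeloma cells, open points are healthy mice or central-marrow myeloma cells, dashes are group means and bars are the SD. Bmp7 leaves the floor in the 8 osteoprogenitor libraries alone, Bmp2 and Bmp4 are high in every stromal and osteoprogenitor library, and Bmp5 and the endothelial values split between high and near-absent libraries.

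Bmp5 (chr9:75775364-75900310, plus strand), a ligand of the Bmp6 and Bmp7 subgroup, was either present at several RPKM or nearly absent in libraries of the same group, and its upstream window is the CpG-poor one of those printed. Stromal progenitors read 31.2, 0, 4.92, 2.01 and 0.0177 RPKM in healthy and 29.6, 28.1, 25.4, 0.0159 and 25.3 RPKM in myeloma-bearing mice. Thus 4 of 5 myeloma-bearing libraries lay at 25.3 RPKM or above, as did 1 of 5 healthy libraries. The groups overlapped, because healthy C was the highest of all and myeloma-bearing I held 1 read, and the difference was not called (log2 fold change 2.01 ± 1.19 (SE), adjusted p = 0.956). Leaving out library I, singled out after seeing these values, gave 2.97 with an unadjusted p of 0.0118 in limma and adjusted p = 0.815. That p is not independent of the choice. Osteoprogenitors read 0, 15.3, 18.5 and 0.0215 RPKM in healthy and 0, 26.1, 18.3 and 8.94 RPKM in myeloma-bearing mice, again with libraries at 0 in both groups. Among endothelial libraries D of the myeloma-bearing group stood alone at 26.0 RPKM (1227 reads), and the other 9 held at most 8 reads. Bmp5 was higher in stromal progenitors than in endothelial cells (log2 fold change 2.35 ± 0.78 (SE), adjusted p = 0.0335). It passed the filter through the stromal libraries, since 1 of 10 endothelial libraries reached 1 RPKM, and the filter thus fixed the direction. With myeloma-bearing mice alone this difference was not called (log2 fold change 2.87, adjusted p = 0.155). The higher level in osteoprogenitors than in endothelial cells (log2 fold change 2.09 ± 0.81 (SE), adjusted p = 0.0723) was lost without the libraries lettered E, G, I, J, M or N, at adjusted p from 0.111 to 0.209.

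Bmp6 (chr13:38345107-38500302, plus strand), which in liver controls iron balance through hepcidin and which also has osteogenic activity, was found in all 3 niche types. Healthy osteoprogenitors read 41.1, 39.4, 21.8 and 20.6 RPKM and myeloma-bearing osteoprogenitors 0.45, 26.7, 2.06 and 20.7 RPKM. The myeloma-bearing libraries D and I lay below every healthy library while G and J did not, and with every library included this was the lowest unadjusted p of any member in the niche comparisons with limma (log2 fold change -2.07 ± 0.96, unadjusted p = 0.0471, adjusted p = 0.981). In stromal progenitors Bmp6 read 19.1, 22, 10.3, 14.3 and 9.71 RPKM in healthy and 33.6, 10.7, 0.72, 0.0832 and 34.8 RPKM in myeloma-bearing mice. The means of 15.1 and 16 RPKM were close, but the myeloma-bearing libraries spread on both sides of the healthy range, with an SD of 17.2 against 5.37 RPKM. Endothelial libraries read 22.7, 0.0708, 89.8, 30.8 and 0.0342 RPKM in healthy and 0, 5.03, 6.96, 0 and 17.2 RPKM in myeloma-bearing mice, with an overlap (log2 fold change -1.29 ± 1.42 (SE), adjusted p = 0.979). In bone-lining myeloma cells D and G held 39 and 55 reads (0.660 and 1.01 RPKM) and the other 3 libraries held none, against at most 2 reads in the central marrow.

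Bmp7 (chr2:172868012-172940321, minus strand), a ligand needed for kidney development that is also osteoinductive, was found in osteoprogenitors alone, at the depth of these libraries. Healthy osteoprogenitors read 3.34, 17.3, 1.35 and 4.4 RPKM and myeloma-bearing osteoprogenitors 1.71, 11.1, 31.2 and 29 RPKM, from 34 to 976 reads. The other 30 libraries held at most 2 reads each. Against healthy stromal progenitors, in which all 5 libraries were at 0, the level in healthy osteoprogenitors was at least 87.7-fold higher, taking 3 reads per library as the floor, and at least 40.3-fold higher without the highest library. Such floors cover counting error only. The fitted contrast over both conditions was called (log2 fold change 3.11 ± 0.54 (SE), adjusted p = 0.000508), but with a group at 0 its size moves with the pseudocount, so the fold to read is the one set by the floor. The study lists Bmp7 among the genes it used to characterise osteoprogenitors in these samples, so its direction is not independent evidence. Cartilage markers also differed between these types: 6 of 7 had the higher median in osteoprogenitors, and Comp had the lower one, at 426 to 2133 RPKM against 660.0 to 3695 RPKM in stromal progenitors. All 7 had a mean of 1 RPKM or more in both osteoprogenitor groups (7 and 6 did in healthy and myeloma-bearing stromal progenitors), their sum was 2458 to 7728 RPKM in osteoprogenitors and 719 to 3753 RPKM in stromal progenitors, and Col9a1 read 84.0 to 458 RPKM against at most 5.09 RPKM. The part of such cells in the Bmp7 reads was not tested. In myeloma-bearing osteoprogenitors I and J exceeded every healthy library, whereas D was among the lowest, and the difference did not pass the test (log2 fold change 1.24 ± 1.03 (SE), adjusted p = 0.981).

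Summed over the 5 ligands, stromal progenitors held 237 ± 82.9 RPKM (SD, n = 5) in healthy and 192 ± 61.1 RPKM (SD, n = 5) in myeloma-bearing mice. Osteoprogenitors held 149 ± 44.4 and 134 ± 67 RPKM (SD, n = 4 each) and endothelial cells 97 ± 88.1 and 77.5 ± 60.8 RPKM (SD, n = 5 each). The sums of healthy and myeloma-bearing libraries overlapped in each type, and those of healthy stromal progenitors (177 to 380 RPKM) overlapped those of healthy osteoprogenitors (104 to 195 RPKM) only at their edges. Bmp4 and Bmp2 together made up most of the stromal mean, at 56.8% and 33.7% in healthy and 42.8% and 37.6% in myeloma-bearing mice. In osteoprogenitors Bmp2 took 44.6% and 26.7% of the mean in healthy and myeloma-bearing mice, Bmp4 24.8% and 40.5%, Bmp6 20.5% and 9.31%, and Bmp7 4.41% and 13.6%. In endothelium Bmp4 took 62.3% and 68.1%. These shares are of group means in which single libraries weigh heavily, and no test was made of them.

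**Figure D2:**
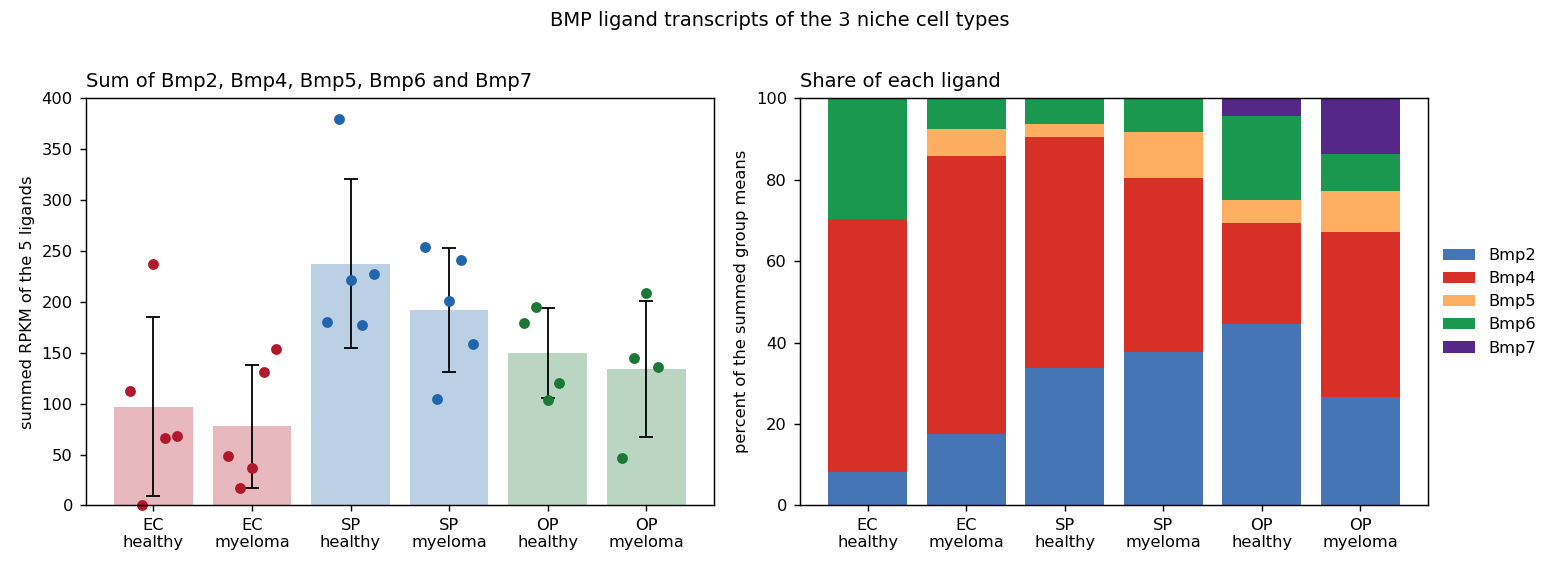
The left panel shows the summed RPKM of Bmp2, Bmp4, Bmp5, Bmp6 and Bmp7 by group (bars, means; error bars, SD; points, libraries), and the right panel the percentage of each group's mean sum that each ligand contributed. Of the niche cell types shown, stromal progenitors have the highest sums (means of 237 and 192 RPKM). Bmp7 makes up 4.41% and 13.6% of the osteoprogenitor bars and at most 0.0206% of any other.

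Bmp1 (chr14:70474558-70520234, minus strand) is named with the ligands but is a metalloprotease that trims procollagen C-propeptides and cleaves chordin. It was the steadiest member in osteoprogenitors, at 54.4, 39.3, 51.8 and 45.2 RPKM in healthy and 50.1, 47, 32.8 and 58.6 RPKM in myeloma-bearing mice, with nearly the same level in both (log2 fold change -0.03 ± 0.47 (SE), adjusted p = 0.999). Stromal progenitors read 25, 24.6, 6.67, 10.2 and 18.4 RPKM in healthy and 6.27, 16.3, 13.5, 30.2 and 2.42 RPKM in myeloma-bearing mice. All 8 osteoprogenitor libraries (32.8 RPKM and above) lay over all 10 stromal libraries (30.2 RPKM and below), and the contrast was called (log2 fold change 1.81 ± 0.45 (SE), adjusted p = 0.0154). With fewer libraries in each condition alone it kept its direction and was not called, at a log2 fold change of 1.58 with adjusted p = 0.208 in healthy and 2.05 with adjusted p = 0.229 in myeloma-bearing mice. Endothelial libraries read 15.4, 0.0511, 0.0863, 0.0528 and 27 RPKM in healthy and 8.01, 0.0125, 0.0689, 0.0502 and 9.34 RPKM in myeloma-bearing mice, so that 4 of 10 carried the transcript at 8.01 RPKM or more and 6 held at most 9 reads. Bmp1 was higher in osteoprogenitors than in endothelial cells (log2 fold change 3.99 ± 0.75 (SE), adjusted p = 0.000392) and higher in stromal progenitors than in endothelial cells (log2 fold change 2.18 ± 0.74 (SE), adjusted p = 0.0391). The latter call was lost without the letters E, G, I or L, with adjusted p from 0.1004 to 0.114. It was also lost when healthy or myeloma-bearing mice were fitted alone (log2 fold change 2.20 and 2.17, adjusted p = 0.245 and 0.199).

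Bmp1 and Twsg1 were the 2 members that could be tested between the myeloma niches, and Bmp1 had the lower p. Bone-lining myeloma cells read 1.66, 2.2, 1.05, 3.56 and 6.02 RPKM and central-marrow myeloma cells 1.67, 0.0415, 0.293, 0.0226 and 1.34 RPKM. Libraries E, I and J of the bone lining lay above every central library, while D and G did not, and the limma test gave a log2 fold change of 1.20 ± 0.46 with an unadjusted p of 0.0190, which was lost on adjustment (adjusted p = 0.770). Summed osteoprogenitor markers overlapped between the niches, at 26.4 to 77.3 RPKM in the bone lining and 38.3 to 98.2 RPKM in the central marrow. Alpl alone read 14.1 to 71.5 RPKM in myeloma cells. Of the 9 markers, 4 had a mean of 1 RPKM or more in the bone lining and 2 in the central marrow. The part of osteoprogenitor RNA in the Bmp1 reads was not tested.

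Grem1 (chr2:113746164-113758646, minus strand), the antagonist gremlin, which binds Bmp2, Bmp4 and Bmp7, was high in few libraries. Its upstream window is the CpG-rich run printed with those of Bmp4 and Bmp5. In stromal progenitors it read 0.279, 0, 0.0283, 57.8 and 31 RPKM in healthy and 1.74, 0, 0, 0 and 0 RPKM in myeloma-bearing mice. Only N and O of the healthy group, at 2070 and 1135 reads, carried it at a high level, and in the myeloma-bearing group D held 39 reads and the others none. It was above 1 RPKM in 3 of 10 stromal libraries and so was not tested with limma on RPKM. Fitted with voom-limma, which weights each log count by its precision, to the recovered reads of all 38 libraries it gave a log2 fold change of -4.31 with an unadjusted p of 0.0469 and an adjusted p of 0.559. Osteoprogenitors read 0, 3.96, 29.1 and 0 RPKM in healthy and 0, 0, 13.2 and 7.41 RPKM in myeloma-bearing mice, present in 2 of 4 libraries of each group (log2 fold change -0.08 ± 1.24 (SE), adjusted p = 0.999). Among endothelial libraries J alone carried Grem1 (9.48 RPKM, 536 reads), and all 10 myeloma libraries were at 0 reads, which with 3 reads as the floor allows a mean of up to 0.0988 RPKM in the bone lining.

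Chrdl1 (chrX:143285674-143394262, minus strand), chordin-like 1, an antagonist of Bmp4, was present in every osteoprogenitor library. It read 18, 17.7, 24.6 and 22.9 RPKM in healthy and 8.04, 13.7, 36.5 and 6.32 RPKM in myeloma-bearing mice. Healthy libraries lay within 17.7 to 24.6 RPKM, whereas the myeloma-bearing libraries spread around them, 3 below and 1 above (log2 fold change -0.64 ± 0.71 (SE), adjusted p = 0.998). In stromal progenitors it read 19.2, 1.77, 0.00686, 26.3 and 0.912 RPKM in healthy and 2.99, 6.5, 30.6, 3.31 and 18.8 RPKM in myeloma-bearing mice. Healthy libraries spread from near 0 to 26.3 RPKM, and of the myeloma-bearing libraries G alone lay outside that range, at 30.6 RPKM (log2 fold change 0.96 ± 1.09 (SE), adjusted p = 0.989). Endothelial library J held 16.2 RPKM (3789 reads) and the other 9 at most 3 reads. Chrdl1 was higher in osteoprogenitors (log2 fold change 3.69 ± 0.61 (SE), adjusted p = 8.86e-05) and in stromal progenitors (log2 fold change 2.36 ± 0.69 (SE), adjusted p = 0.0156) than in endothelial cells. It passed the filter through the mesenchymal libraries, which fixed this direction. With myeloma-bearing mice alone the stromal difference from endothelial cells was not called (log2 fold change 2.43, adjusted p = 0.146). The difference between the mesenchymal types was not called (log2 fold change 1.33 ± 0.67 (SE), adjusted p = 0.322), though voom-limma on all 38 libraries called it, at a log2 fold change of 2.30 with adjusted p = 0.0929.

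Bmper (chr9:23223076-23485200, plus strand), the crossveinless-2 homologue that binds BMPs and either limits or promotes their action, was low except in a few libraries. Stromal progenitors read 5.28, 0.0154, 3.08, 4.94 and 0 RPKM in healthy and 0, 0.0813, 0, 85.7 and 0 RPKM in myeloma-bearing mice. In myeloma-bearing mice it was therefore a gene of library I (8108 reads), with at most 8 reads in the other 4, while 3 of 5 healthy libraries held 3.08 to 5.28 RPKM. Osteoprogenitors read 3.01, 22.4, 0.488 and 0.0574 RPKM in healthy and 18.1, 0.0573, 2.7 and 0 RPKM in myeloma-bearing mice, also with high and near-absent libraries in both groups. In endothelium J again was highest, at 3.98 RPKM (521 reads), and the higher mean of osteoprogenitors than of endothelial cells was not called (log2 fold change 1.41 ± 0.63 (SE), adjusted p = 0.123), but was without that library, at a log2 fold change of 1.64 with adjusted p = 0.0662. It was also called with a pseudocount of 0.1 (2.84, adjusted p = 0.0897), without the letters J or O (adjusted p = 0.0416 and 0.0819), and with voom-limma on the recovered reads of all 38 libraries (4.91, adjusted p = 0.0285) or of those compared (4.84, adjusted p = 0.0453). Bmper reached 1 RPKM in 4 of 8 osteoprogenitor libraries and in 1 of 10 endothelial ones, which was J. In the fits with the filter it was thus tested through the osteoprogenitors, which fixed the direction.

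Twsg1 (chr17:65921972-65951226, minus strand), twisted gastrulation, which joins chordin and BMPs in a complex, was the most abundant of the 4 antagonists and modulators and the only member above 1 RPKM in all 10 myeloma libraries. Stromal progenitors read 121, 147, 103, 138 and 127 RPKM in healthy and 74.9, 84.2, 123, 254 and 64 RPKM in myeloma-bearing mice. Library I was again the highest, and 3 of the other 4 myeloma-bearing values lay below the healthy range (log2 fold change -0.27 ± 0.44 (SE), adjusted p = 0.994). Osteoprogenitors read 104, 47.8, 50.6 and 90.6 RPKM in healthy and 54, 60.2, 48.3 and 77.3 RPKM in myeloma-bearing mice. Bone-lining myeloma cells read 13.9, 10.5, 4.55, 13.3 and 4.2 RPKM and central-marrow myeloma cells 3.73, 10.9, 7.05, 10.5 and 12.6 RPKM. The niches had the same mean on the log scale, 3.22 (log2 fold change 0.00 ± 0.44 (SE), adjusted p = 1.00). Endothelial cells read 8.65, 0.0844, 0.0422, 65.7 and 20.4 RPKM in healthy and 9.79, 0.865, 6.81, 4.73 and 5.12 RPKM in myeloma-bearing mice. Twsg1 was higher in stromal progenitors than in endothelial cells (log2 fold change 4.22 ± 0.65 (SE), adjusted p = 2.14e-05) and lower in myeloma cells than in stromal progenitors (log2 fold change -3.51 ± 0.53 (SE), adjusted p = 0.000174). The order of the means was stromal progenitors (124 RPKM), osteoprogenitors (66.6 RPKM), endothelial cells (12.2 RPKM) and myeloma cells (9.12 RPKM), and the first pair was not called (log2 fold change -0.84 ± 0.32 (SE), adjusted p = 0.142). Between bone-lining myeloma cells and myeloma-bearing endothelial cells, the groups fitted for the last pair, the mean on the log scale was the higher one in myeloma cells, at 3.22 against 2.49, and the difference was not called either (log2 fold change 0.74 ± 0.63 (SE), adjusted p = 0.397).

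**Figure D3:**
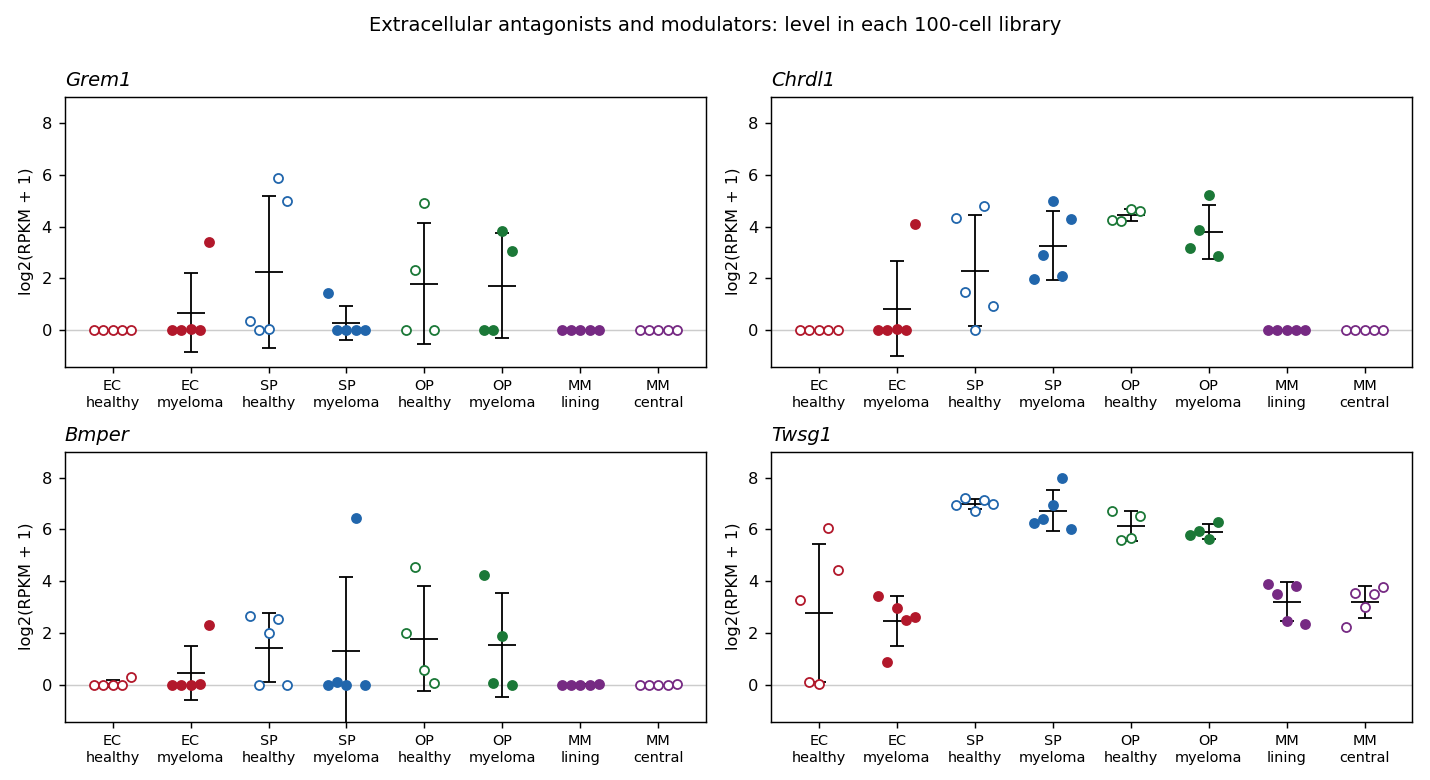
Each panel plots log2(RPKM + 1) of Grem1, Chrdl1, Bmper or Twsg1 for all 38 libraries by group, with filled points for myeloma-bearing mice or bone-lining myeloma cells, open points for healthy mice or central-marrow myeloma cells, dashes for group means and bars for the SD. Twsg1 is present in every stromal, osteoprogenitor and myeloma library, Chrdl1 in every osteoprogenitor library, and Grem1 and Bmper rise from the floor in single libraries, among them endothelial library J (9.48 and 3.98 RPKM) and, for Bmper, stromal library I (85.7 RPKM).

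Between myeloma-bearing and healthy mice no member was called in any niche type. Of the 10 members, 5 could be tested in endothelial cells, 8 in stromal progenitors and all 10 in osteoprogenitors, and 0 were called in each, while 0%, 0% and 0.0115% of all genes tested were called there. At an unadjusted p below 0.05 limma found 0, 0 and 1 of them (Bmp6 in osteoprogenitors), beside 414, 437 and 422 of 7880, 8747 and 8664 genes. Between the myeloma niches 2 members were tested and 0 called, with 1 (Bmp1) at an unadjusted p below 0.05 and 0.203% of genes called. Voom-limma on the recovered reads of all 38 libraries tested all 10 members, and called 0 in each of the 4 comparisons, while it called 1.89% of 13260 genes in endothelial cells, 0.618% in stromal progenitors, 0.211% in osteoprogenitors and 0.0905% between the myeloma niches. Its lowest unadjusted p for a member was 0.157, 0.0469, 0.112 and 0.0555 in that order. With 4 or 5 libraries a group and the SE above, differences of the size seen in Bmp6 of osteoprogenitors or Bmp5 of stromal progenitors could not be told from the spread between replicates. The changes of 2 niche types were also compared with each other: 0 of 10 members were called for stromal progenitors against osteoprogenitors, 0 of 9 for stromal progenitors against endothelial cells and 0 of 10 for osteoprogenitors against endothelial cells, beside 0%, 0% and 0% of all genes. In limma none of these members had an unadjusted p below 0.05, and in voom-limma on all 38 libraries 1 did, Grem1 for stromal progenitors against endothelial cells (log2 fold change -6.52, unadjusted p = 0.0252), which was not called after adjustment.

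**Figure D4:**
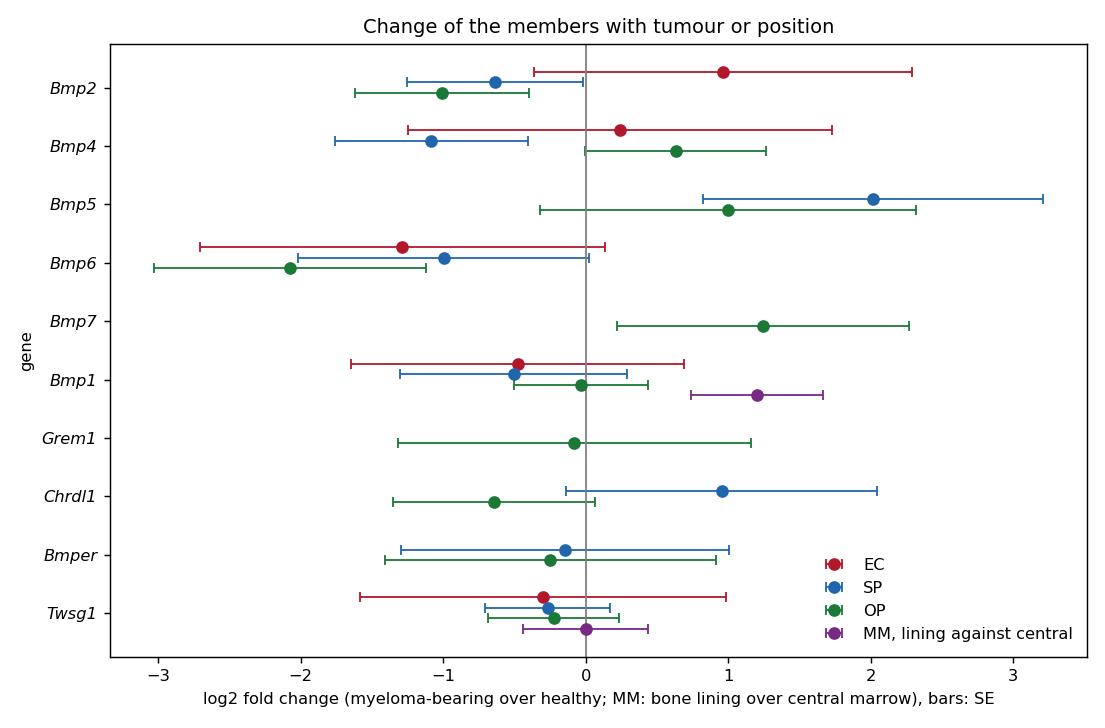
Log2 fold changes (points) with their SE (bars) are shown for the members tested in endothelial cells, stromal progenitors and osteoprogenitors (myeloma-bearing over healthy) and in myeloma cells (bone lining over central marrow). No member was called, and the points farthest from 0 are Bmp6 in osteoprogenitors (-2.07 ± 0.96) and Bmp5 in stromal progenitors (2.01 ± 1.19).

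Between cell types, by contrast, members were called, some of them in a direction that the filter fixed. Of the 10, 2 (Bmp7 and Bmp1) were higher in osteoprogenitors than in stromal progenitors, beside 4.11% of all genes tested, and 0 were lower, beside 3.59%. Osteoprogenitors exceeded endothelial cells in 6 members (Bmp2, Bmp5, Bmp7, Bmp1, Chrdl1 and Twsg1), beside 16.7% of genes, and stromal progenitors exceeded them in 5 of the 9 tested (Bmp2, Bmp5, Bmp1, Chrdl1 and Twsg1), beside 14.6%. No member was higher in endothelial cells than in either, where 9.47% and 9.48% of genes were. These comparisons share their osteoprogenitor, stromal or endothelial libraries. In bone-lining myeloma cells 7 of 7 tested members were lower than in myeloma-bearing stromal progenitors (18.8% of genes) and 7 of 7 lower than in osteoprogenitors (18.4%), whereas 1 of 4, Bmp4, was lower than in endothelial cells (17.1%). None was higher, beside 23.5%, 24.5% and 24.4% of genes. A member that is near 0 in myeloma cells passed the filter through the niche type alone. These counts therefore describe the members tested and support nothing. The same holds for Bmp5, Bmp7 and Chrdl1 against endothelial cells, where 1, 0 and 1 of 10 endothelial libraries reached 1 RPKM, and for Bmp7 against stromal progenitors, where none did. Only Bmp1 and Twsg1 were above 1 RPKM in at least 4 bone-lining myeloma libraries. Bmp1 was lower in myeloma cells than in stromal progenitors by a small margin (log2 fold change -1.69 ± 0.67 (SE), adjusted p = 0.0657), and with libraries scaled to their total reads this became -0.99 with adjusted p = 0.237. The call was also lost with all 38 libraries in the fit, with limma (adjusted p = 0.126) or voom-limma (adjusted p = 0.187), and without the letters D, E, G or I, at adjusted p from 0.118 to 0.220. Bmp4 against endothelial cells could not be tested without D, G, I or J, since it then no longer passed the filter. That scaling shifted the median log2 fold change of all genes by 0.67 in this contrast, 0.50 against osteoprogenitors, 0.32 against endothelial cells, -0.26 for stromal against endothelial cells and 0.15 for osteoprogenitors against stromal progenitors, and turned the split of higher to lower genes from 2224 and 1783 to 3897 and 1431, from 2278 and 1718 to 3428 and 1416, from 2243 and 1574 to 2953 and 1405, from 1542 and 1004 to 1233 and 1339 and from 441 and 385 to 575 and 285.

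How far replicates of a type agreed differed widely between members. The SD of log2(RPKM + 1) within groups, pooled over both conditions, was 0.285 for Bmp1 and 0.447 for Twsg1 in osteoprogenitors, where the median gene had 1.24, so that 0.637% and 4.29% of genes varied less. Twsg1 was also steady in stromal progenitors, at 0.575 against a median of 1.4. At the other end Bmp5, Grem1 and Bmper had 2.27, 2.18 and 2.0 in osteoprogenitors and 2.11, 2.12 and 2.24 in stromal progenitors, above the SD of 89.8% to 95.8% of genes. In endothelium Bmp4, at 3.04, varied more than 98% of genes. On this scale a gene near 0 has a small SD, so these percentages also reflect the level. Each library is 100 cells, and whether cells or amplification differ between libraries was not tested.

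Counted library by library, 3 to 5 of the 5 ligands were at or above 1 RPKM in osteoprogenitors, 2 to 4 in stromal progenitors, 0 to 3 in endothelial cells and 0 to 1 in myeloma cells. Of all 10 members the same counts were 7 to 10, 6 to 9, 0 to 8 and 1 to 3. The endothelial library with 8 was J of the myeloma-bearing group, the library with the highest osteoprogenitor marker sum of its type, and its Cdh5 lay within the endothelial range given above. The part of mesenchymal cells in its Grem1, Chrdl1 and Bmper reads was not tested. Stromal library I, the deepest of all at 34883291 reads, had the highest stromal level of Bmp2, Bmp1, Bmper and Twsg1 and the lowest of Bmp4 and Bmp6.

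**Figure D5:**
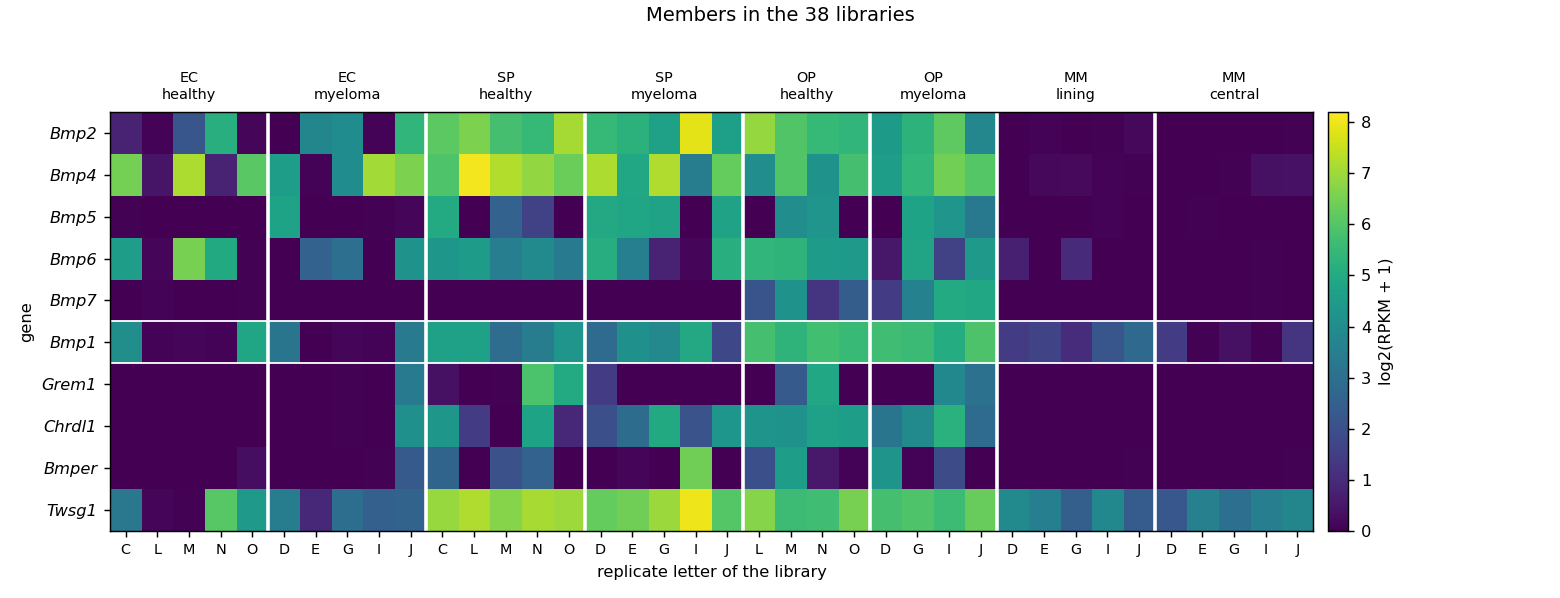
Colour shows log2(RPKM + 1) of the 10 members (rows) in each of the 38 libraries (columns, ordered by group). Osteoprogenitor and stromal columns are filled in 6 to 10 of 10 rows, endothelial columns in 0 to 8 and myeloma columns in 1 to 3, mainly Twsg1 and Bmp1.

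The 10 genes did not share their closest companions. Over the 38 libraries and 12682 genes, the highest Pearson correlations of log2(RPKM + 1) were with Pcolce (0.923), Prelp (0.907) and Plat (0.901) for Bmp2, with Gpx7 (0.898), Gpx3 (0.895) and Pdlim4 (0.884) for Bmp4, and with C1qtnf7 (0.804), Fah (0.741) and Ptgr1 (0.734) for Bmp5. For Bmp6 they were Socs1 (0.831), Lrpap1 (0.771) and Fam3c (0.754), and for Bmp7 Cmtm5 (0.915), the cartilage collagen gene Col9a1 (0.898) and Aspg (0.894). Bmp1 was closest to Fap (0.876), Maged2 (0.855) and Fgfr2 (0.848). Chrdl1 was closest to Plekhh2 (0.882), the cartilage collagen gene Col2a1 (0.866) and Chi3l1 (0.865), and Twsg1 to the matrix genes Comp (0.883) and Omd (0.870) and the growth factor gene Tgfb3 (0.873). Bmper had Gtdc2 (0.801), Asap3 (0.760) and Dok5 (0.733), and Grem1 had the lowest values of the 10, with Ak4 (0.707), E230016M11Rik (0.694) and Fam167a (0.686). These are descriptions: libraries of a type share their cells' other differences and their depth.

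The other genes of the pathway were counted from lists of further ligands, modulators, receptors, Smads with Smurfs and target genes, of which 45 of 60 were in the table. Between myeloma-bearing and healthy mice limma called 0 of 24 tested in endothelial cells, 0 of 35 in stromal progenitors and 0 of 30 in osteoprogenitors, with 1 in each at an unadjusted p below 0.05, and 0 of 13 between the myeloma niches, with 2. Voom-limma on the reads of all 38 libraries, which tested all 45, called 1, 1, 0 and 0, beside 1.89%, 0.618%, 0.211% and 0.0905% of all genes. The median log2 fold change of the receptors was -0.38, 0.46 and -0.52 in the 3 niche types and that of the targets -0.22, -0.08 and 0.13, beside 0.07, 0.00 and -0.03 for all genes tested. Osteoprogenitors against stromal progenitors had 4 higher and 3 lower of 42, beside 4.11% and 3.59% of all genes. The ligand Bmp3 was higher (log2 fold change 2.96 ± 0.59 (SE), adjusted p = 0.00237), as were the modulator Crim1 (1.80 ± 0.53, adjusted p = 0.0453) and the osteoblast factors Sp7 (3.11 ± 0.53, adjusted p = 0.000426) and Runx2 (2.27 ± 0.62, adjusted p = 0.0290), both of which also served as osteoprogenitor markers. Sp7 read at most 0.711 RPKM in stromal progenitors and passed the filter through the osteoprogenitors, which fixed its direction. The antagonist Nbl1 (-2.67 ± 0.44, adjusted p = 0.000319) and the follistatin-like Fstl1 (-2.13 ± 0.31, adjusted p = 5.72e-05) were lower. Nbl1 was the modulator with the largest difference between stromal progenitors and endothelial cells, at 154 to 713 against 0 to 37.4 RPKM.

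The same lists in the other contrasts gave 12 higher and 5 lower of 36 in osteoprogenitors against endothelial cells, beside 16.7% and 9.47% of all genes, and 15 higher and 8 lower of 38 in stromal progenitors against endothelial cells, beside 14.6% and 9.48%. Those lower in both mesenchymal types were led by the endothelial BMP co-receptor Eng (81.0 to 289 RPKM in endothelial cells, at most 25.4 RPKM in stromal progenitors and 14.5 RPKM in osteoprogenitors) and the type I receptor Acvrl1 (2.20 to 34.4 RPKM against at most 8.49 and 0.225 RPKM). Bone-lining myeloma cells were lower in 11 of 19, 18 of 28 and 18 of 24 against endothelial cells, stromal progenitors and osteoprogenitors, beside 17.1%, 18.8% and 18.4% of all genes, and higher in 1, 0 and 1, beside 24.4%, 23.5% and 24.5%. As with the members, a listed gene near 0 in myeloma or endothelial cells passed the filter through the other type alone, so these counts describe the genes tested. The target Id1 read 0.657 to 3.49 RPKM there against 609 to 1764 RPKM in myeloma-bearing endothelial cells, 100.4 to 649 RPKM in stromal progenitors and 225 to 543 RPKM in osteoprogenitors. Id3 read 2.51 to 55.4 RPKM against 2302 to 4396, 1216 to 2946 and 1578 to 2918 RPKM. Smad4, the partner of the receptor Smads, was the gene that was higher in myeloma cells (13.9 to 59.6 RPKM), against endothelial cells (1.46 ± 0.60, adjusted p = 0.0787) and osteoprogenitors (1.64 ± 0.58, adjusted p = 0.0439).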

How the data were processed

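Polyadenylated RNA of 100 sorted cells per library was sequenced by the authors as single-end reads of 50 bases, aligned with STAR 2.4.0 to GRCm38 (mm10) and counted per gene with featureCounts of Subread 1.4.5-p1 (per the study's methods and the submitters' processing notes). Default counting uses no strand, so reads of a gene and of an overlapping antisense gene cannot be told apart. The deposited values are RPKM that the authors computed with edgeR, for genes that passed 1 CPM in 4 or more samples, and no library was pooled. The values of all 13260 genes (100%) were whole multiples of what 1 read is worth, within 0.001 read, which gave the reads per gene and a depth of 9735031 to 34883291 per library, with scaling factors of 0.627 to 1.60.

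Groups came from the labels. The members and gene lists were chosen with earlier results of these data known. All 10 members are named, and further genes by rule: of each pathway list the 3 called genes with the largest change between cell types, and for each member the 3 genes most correlated with it. Log2(RPKM + 1) was fitted with limma 3.58.1 (R 4.3.3, trend) on the libraries compared. The filter was 1 RPKM in 4 libraries, and a call needed an adjusted p below 0.1 together with a log2 fold change beyond 1 in either direction. Alternatives were a pseudocount of 0.1, no filter, an adjusted p below 0.05, a fit over all 38 libraries, voom-limma on the recovered reads, scaling to total reads, the library letter as a block, each condition alone, central-marrow in place of bone-lining myeloma cells, and each letter left out. Leaving out endothelial library J or stromal library I alone was chosen after seeing the data. The fit was tested on simulated data. Outliers, counts and figures were computed with Python 3.11.15, numpy 2.4.6, pandas 2.3.3 and matplotlib 3.10.9.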

Additional observations from a re-analysis of the deposited data

Results flagged for a closer look

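In 57 sets of 4 or 5 libraries with a member present, Dixon's test on log2(RPKM + 1) set 8 libraries apart from their group, all of them in myeloma-bearing mice. Chance gives about 5% of sets where values are normally distributed, which does not hold for sets piled near 0: in 6 of the 8 the other libraries held at most 8 reads, so that a library with more reads stands apart by the form of the data. In endothelial cells Bmp5 was highest in library D (26.0 RPKM, with the next at 0.0917 RPKM). Endothelial library J was highest for Grem1 (9.48 RPKM, next 0.0375 RPKM), Chrdl1 (16.2 RPKM, next 0.0272 RPKM) and Bmper (3.98 RPKM, next 0.0393 RPKM). In stromal progenitors library I was highest for Bmp2 (230.3 RPKM, next 43.9 RPKM) and Bmper (85.7 RPKM, next 0.0813 RPKM) and lowest for Bmp5 (0.0159 RPKM, next 25.3 RPKM). Grem1 was highest in stromal library D (1.74 RPKM, 39 reads), with the other 4 at 0. Whether cells of another type, the state of the sorted cells or amplification from 100 cells moved these values was not tested.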

How the results depend on the processing

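These counts cover the differences between groups and leave out the comparisons of the changes of 2 cell types. Of 738 refitted values of the 44 log2 fold changes of at least 1 in size, 683 kept their side of the threshold, 35 lost a call, 20 gained a call and 0 changed direction. Of the 28 smaller ones, none of them called, 12 changed sign in some alternative, among them Grem1 and Bmp1 in osteoprogenitors (from -0.68 to 0.49 and from -0.15 to 0.13) and Twsg1 between the myeloma niches (from -0.41 to 0.35). The widest ranges among them ran to -2.44 for Bmper in stromal progenitors (highest 0.18) and to 2.74 for Bmp1 in myeloma against endothelial cells (lowest -0.72). Between myeloma-bearing and healthy mice, between the myeloma niches and between the changes of 2 cell types, 0 members were called in every alternative run (from 0 to 0 with each letter left out), although genes called over the whole table went up with voom-limma over all 38 libraries, for endothelial cells from 0 to 251, for stromal progenitors from 0 to 82 and for osteoprogenitors from 1 to 28. For osteoprogenitors against stromal progenitors the 2 members called became 1 (Bmp7) in healthy mice only and 1 in myeloma-bearing mice only, and 2 to 3 with each letter left out. Osteoprogenitors against endothelial cells had 6, which became 4 in healthy mice only and 4 in myeloma-bearing mice only, ranged from 5 to 7 with each letter left out and became 8 with voom-limma over all 38 libraries (Grem1 and Bmper added). That fit called 3 for osteoprogenitors against stromal progenitors (Chrdl1 added) and 9 for myeloma against osteoprogenitors, where it tested all 10 members. For stromal progenitors against endothelial cells the 5 became 2 in healthy mice only, 1 in myeloma-bearing mice only and 4 to 6 with each letter left out. For myeloma against endothelial cells the 1 member (Bmp4) became 2 with all 38 libraries in the fit, with limma or voom-limma, and 0 without endothelial library J alone, and ranged from 0 to 1 with each letter left out. Bmp4 was called without E and not tested without D, G, I or J, and the 1 member called without D or I was Bmp6 (adjusted p = 0.0641 and 0.0935 in limma). Against stromal progenitors the 7 became 4 to 6 (4 without D, E or G), and against osteoprogenitors 2 to 7 (3 without D, 2 without G, I or J). Against osteoprogenitors the loss follows from the filter, which needs 4 libraries and then tested 2 or 3 members, all of them called. Against stromal progenitors it left 5 members without D, E, G or J and 7 without I, and Bmp1 also lost its call on the adjusted p without D, E, G or I. In 1 condition alone each fit has fewer libraries and fewer members tested. Letters were treated as not pairing the libraries: deviations of same-letter libraries correlated at -0.0427 to 0.115 over 59 pairs, with 1 pair over 0.1. Such correlations cannot show whether libraries of a letter came from 1 mouse, so the independence of libraries of different cell types is not settled. With the replicate block 5 members were called in osteoprogenitors against endothelial cells (Bmp5 lost), 6 in myeloma against stromal progenitors (Bmp1 lost) and 2, 5, 1 and 7 in the other cell type comparisons, as without it. Each difference between groups rests on 4 or 5 libraries of 100 cells, and at 0 to 3 reads a level cannot be told from 0 at this depth.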
